A study of Mus musculus with 6 samples.

Results

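The plasminogen activation system of mouse proximal tubular cells was followed through 6 genes picked by name: the activators Plau and Plat, the urokinase receptor Plaur, the protease inhibitors Serpine2 and Serpinb2, and F3, which encodes tissue factor. They were 6 of 22061 named genes measured, and each had 1 probe set among 28361. These genes and the related lists below were chosen with earlier results of these data known. The cells were MCT, a line of proximal tubular epithelium first obtained from kidney cortex of SJL mice. After a night without serum they received the cytokine TWEAK at 100 ng/mL for 6 h, or vehicle, and RNA was hybridised to Affymetrix whole-transcript arrays, with 3 control and 3 TWEAK arrays from what the series calls independent experiments of this single line. The comparison asked which transcripts differed under TWEAK, a TNF family ligand of the receptor Fn14.

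Urokinase (Plau) and tissue-type activator (Plat) are serine proteases that cut plasminogen into plasmin, which degrades fibrin and helps to break down matrix. Plaur anchors urokinase at the cell surface and so concentrates plasmin formation there, while serpins trap the activators in inactive complexes. Tubular epithelium is a known source of the urokinase found in urine, and tissue factor starts clotting, the process that plasmin counteracts.

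The arrays showed no called change in any of these genes. With limma and Benjamini-Hochberg adjustment over all genes, 0 of the 6 passed the threshold of 0.05, which 3.00% of all genes did (1.28% higher and 1.71% lower), and 0 had an unadjusted p under 0.05, against 21.3% of all genes. Plaur had the largest difference, 1.38-fold higher under TWEAK with an interval reaching from below no change to nearly a doubling, and the other 5 differed by less than 0.1 on the log2 scale, as did 44.4% of all genes. The median difference of the 6 was -0.03, beside 0.03 over all genes. The control and TWEAK arrays overlapped for each of the 6, while 26.4% of all genes had groups that did not overlap. In RNA from whole cultures, fewer cells that express a gene and less of its RNA per cell cannot be told apart.

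Values are the authors' log2 expression after RMA, in which a step of 1 is a 2-fold change, and levels of different probe sets are not comparable with each other. The median of an array lay between 6.12 and 6.18 and its lower quartile between 4.65 and 4.73. Of 9 proximal tubule markers used 6 had means above the array median and 0 were below the lower quartile. By definition as many probe sets of an array lie above its median as below it. Pax8 and Lrp2 were at 10.67 and 8.78 in control cells, and Slc34a1, at 6.15, was near the median. Cubn, Ggt1 and the brush-border peptidase Anpep had means below the median, with 6.13, 5.99 and 5.06 in control cells. Of 6 epithelial markers 4 lay above the array median and 0 below the lower quartile. The keratin genes Krt18, Krt19 and Krt8 and the claudin gene Cldn4 were at 11.08, 8.91, 7.22 and 6.35 in control cells, and the adhesion genes Cdh1 and Epcam lay below the median, at 5.70 and 4.98. Mean levels of 6 endothelial markers were 4.96 to 5.06 in control and 5.08 to 5.21 in TWEAK arrays, and those of 7 leukocyte markers 5.22 to 5.35 and 5.22 to 5.37. Of these, 0 endothelial markers and 1 leukocyte marker, Cd68, lay above the array median. Cd68 was at 6.77 in control and 6.91 in TWEAK arrays. Of 6 fibroblast and pericyte markers 3 lay above the array median (Col1a1, Col1a2 and Acta2), with means of 5.90 to 6.02 in control and 6.05 to 6.09 in TWEAK arrays. Of all these markers 0 were called in limma's test, and their part in the results was not tested. Among the proximal tubule markers, Cubn differed by -0.33 and Lrp2 by -0.64, at limma Benjamini-Hochberg adjusted p of 0.0641 and 0.0859. For both, every TWEAK array lay below every control array. Slc34a1 and Hnf4a, at 0.19 and 0.22, had groups without overlap upwards, and 26.4% of all genes had groups that did not overlap.

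**Figure D1:**
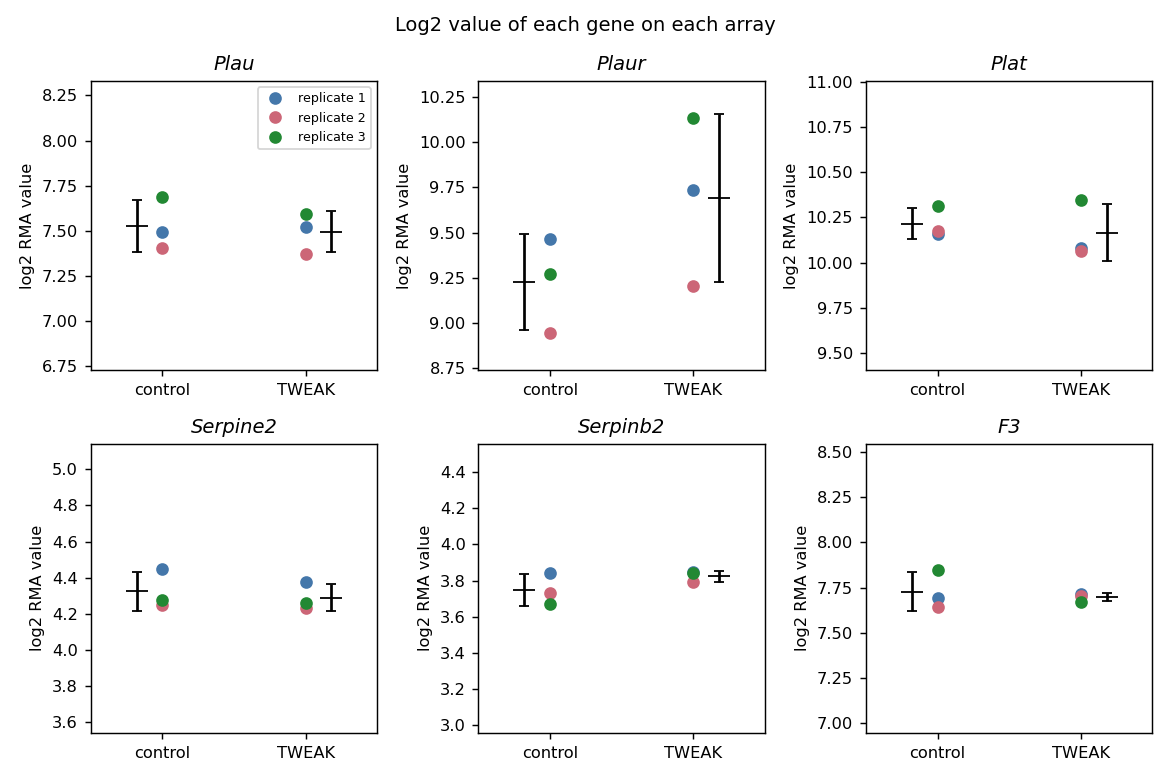
Log2 RMA value (vertical axes, each spanning the same log2 range) of the 6 genes on the 3 control and 3 TWEAK arrays. Coloured points are single arrays and black marks are group means with SD. Plaur spread from 8.94 to 10.13, while the points of the other genes stayed within 0.31 of each other.

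The urokinase receptor gene Plaur was at 9.47, 8.94 and 9.27 in control arrays 1, 2 and 3 and at 9.73, 9.21 and 10.13 in TWEAK arrays 1, 2 and 3. TWEAK 3 and TWEAK 1 lay above every control array, whereas TWEAK 2 lay below controls 1 and 3. The means were 9.23 ± 0.27 and 9.69 ± 0.47 (SD, n = 3 arrays per group). The difference was 0.47 (SE 0.23, 95% interval -0.06 to 0.99), a 1.38-fold higher mean with an interval of 0.958 to 1.99, and limma's Benjamini-Hochberg adjusted p was 0.294. An exact two-sided permutation test of the 6 values gave p = 0.30, where 3 arrays against 3 cannot go below 0.10. Its size rested on single TWEAK arrays: the difference was 0.24 without TWEAK 3 and 0.71 without TWEAK 2, the latter at a limma Benjamini-Hochberg adjusted p of 0.0849. The authors' deposited table gives a ratio of 1.41 of unlogged means for Plaur, with a p-value of 0.0896 and a false discovery rate of 0.341. The receptor for TWEAK itself, Tnfrsf12a, was also brightest on TWEAK 3, at 11.30, beside 10.86 and 10.46 on TWEAK 1 and 2 and 10.42 to 10.78 on the control arrays, and it was not called (limma Benjamini-Hochberg adjusted p = 0.399). Its difference was 0.34, and 0.12 without TWEAK 3.

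The urokinase gene Plau was at 7.49, 7.41 and 7.69 in the control arrays and at 7.52, 7.37 and 7.59 in the TWEAK arrays. In both groups array 3 was the highest and array 2 the lowest, and the groups overlapped almost completely. The means were 7.53 ± 0.14 and 7.50 ± 0.11 (SD, n = 3 arrays per group), a difference of -0.03 (SE 0.10, 95% interval -0.27 to 0.21, limma Benjamini-Hochberg adjusted p = 0.900). On the fold scale the interval ran from 0.829 to 1.15. The authors' deposited table lists Plau at a ratio of 0.976.

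The tissue-type activator gene Plat was at 10.16, 10.18 and 10.31 in the control arrays and at 10.08, 10.06 and 10.35 in the TWEAK arrays. Array 3 was again the highest of each group, and the TWEAK arrays held both the lowest and the highest of the 6 values. The means were 10.22 ± 0.08 and 10.16 ± 0.16 (SD, n = 3 arrays per group), a difference of -0.05 (SE 0.10, 95% interval -0.29 to 0.19, limma Benjamini-Hochberg adjusted p = 0.831). The fold interval was 0.819 to 1.14. Plat was -0.14 without TWEAK 3 but -0.0011 without TWEAK 2 and -0.0032 without control 3.

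The serpin genes gave low values. Serpine2 encodes protease nexin-1, which inhibits thrombin and both plasminogen activators, and was at 4.45, 4.25 and 4.28 in control arrays and 4.38, 4.23 and 4.26 in TWEAK arrays. Array 1 was the highest of each group. The difference was -0.04 (SE 0.09, 95% interval -0.24 to 0.17, limma Benjamini-Hochberg adjusted p = 0.871). Serpinb2 encodes plasminogen activator inhibitor type 2, a largely intracellular serpin, and was at 3.84, 3.73 and 3.67 in control and 3.85, 3.79 and 3.84 in TWEAK arrays. Control 1 and TWEAK 1 were nearly equal, and controls 2 and 3 lay below all TWEAK arrays. The Serpinb2 difference was 0.08 (SE 0.08, 95% interval -0.11 to 0.27, limma Benjamini-Hochberg adjusted p = 0.661), and 0.0371 without control 3. Both genes lay below the lower quartile of every array, so at such values a change may be too dim to be seen, and their intervals describe the measured values only.

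Tissue factor, F3, was at 7.69, 7.64 and 7.85 in the control arrays and at 7.71, 7.71 and 7.67 in the TWEAK arrays. The TWEAK arrays lay close together, with an SD of 0.02 against 0.11 in control, and within the range of the control arrays. The means were 7.73 and 7.70, and the difference was -0.03 (SE 0.09, 95% interval -0.23 to 0.16, limma Benjamini-Hochberg adjusted p = 0.879). The fold interval for F3 ran from 0.854 to 1.12.

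**Figure D2:**
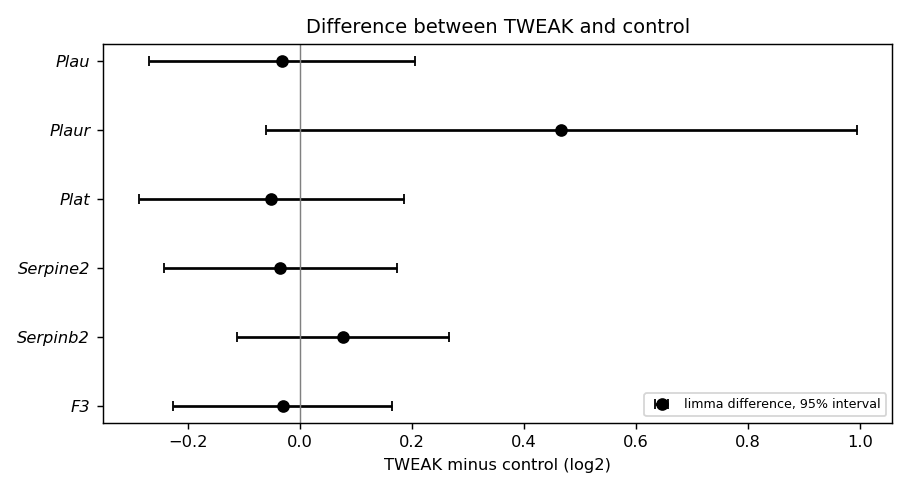
TWEAK minus control on the log2 scale (horizontal axis) for the 6 genes. Points are limma estimates from 3 arrays per group and bars their 95% intervals, each of which crosses 0, from -0.06 to 0.99 for Plaur and between -0.29 and 0.27 for the others.

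Promoter sequence was at hand for 4 of the 6 genes in a RefSeq table of build GRCm38.p6. The 250 bases before the annotated start are shown for Plaur, the gene with the largest difference, and for F3 and Serpinb2, which differed little. Serpine2 also differed little, and its window is described below but not shown. Capitals mark matches to the AP-1 motif TGANTCA, the same on both strands. The NF-kB consensus was searched by name, on both strands, and had 0 matches in these windows. These factors are known mediators of TNF family signals. The windows are chr7:24462233-24462482 for Plaur, chr3:121723287-121723536 for F3 and chr1:107511173-107511422 for Serpinb2, the first of its 2 annotated windows, all on the plus strand.
Plaur: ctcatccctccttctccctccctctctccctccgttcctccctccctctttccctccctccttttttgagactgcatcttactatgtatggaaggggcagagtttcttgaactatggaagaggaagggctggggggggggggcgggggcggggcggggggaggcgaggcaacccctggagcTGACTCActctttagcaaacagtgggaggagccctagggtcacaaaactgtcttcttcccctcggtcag
F3: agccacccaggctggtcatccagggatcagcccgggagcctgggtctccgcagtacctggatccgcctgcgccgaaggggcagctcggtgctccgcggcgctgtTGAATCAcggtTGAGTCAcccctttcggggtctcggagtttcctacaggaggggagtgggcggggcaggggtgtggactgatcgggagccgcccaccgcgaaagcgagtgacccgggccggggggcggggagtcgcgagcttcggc
Serpinb2: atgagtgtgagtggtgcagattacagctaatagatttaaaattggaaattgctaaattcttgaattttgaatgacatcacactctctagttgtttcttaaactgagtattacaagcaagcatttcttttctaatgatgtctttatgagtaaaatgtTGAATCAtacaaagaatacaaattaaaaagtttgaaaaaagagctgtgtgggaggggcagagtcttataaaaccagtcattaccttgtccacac

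The Plaur window held 1 AP-1 match, TGACTCA, which began 69 bases before the start site, and 3 copies of the GC box GGGCGG, which binds Sp1 family factors. The F3 window held 2 AP-1 matches, TGAATCA and TGAGTCA, at 146 and 135 bases, and 3 GC boxes. Serpinb2 had 1 AP-1 match, TGAATCA, at 94 bases, a TATAAA at 29 bases and 0 GC boxes. The Serpine2 window had 0 AP-1 matches, 0 NF-kB matches and 6 GC boxes, counted like TATAAA on both strands and with overlaps. Over all 32851 promoter windows of this length, 6.75% held TGANTCA, 3.9% the NF-kB consensus, 12.4% TATAAA and 32.7% GGGCGG. A match describes letters in the window and does not show that a factor binds there.

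Across the 6 arrays the genes followed different courses. Pearson's r, given as a description over 6 arrays that share normalization, was 0.77 for Plau with Plat, 0.70 for Plau with F3 and 0.66 for Plaur with Serpinb2, and -0.61 for Serpinb2 with F3. Plau and Plaur, ligand and receptor, had r = 0.46. Genes of like course were searched for among 4899 brighter genes with a range of at least 0.5. The 3 most like Plau were Sema5a (r = 0.99), a semaphorin, Sorl1 (0.95), a sorting receptor, and Zdhhc15 (0.95). The 3 most like Plaur were Dph7 (0.99), Cercam (0.99) and Ptgds (0.99), the last a prostaglandin synthase, and for Plat they were Pstk (0.98), the kidney cadherin Cdh16 (0.96) and Hes1 (0.95). F3 was most like Ncald, Ptprg and Ube2t (0.97 each), Serpinb2 like C2cd4c (0.99), Fitm2 (0.98) and Mir689-1 (0.98), and Serpine2 like Cisd2 (0.93), Nova2 (0.93) and Olfr462 (0.91). None of these 18 genes was called in limma, beside 3.00% of all genes. They were picked for their likeness to genes without a call, so this count says nothing further about them. Their r were the highest among 4899 candidates (4898 for Plaur) over only 6 arrays, so high values can arise by selection alone. Serpinb2, which lay below the lower quartile of every array, also reached 0.99. Whether any of these genes is regulated together with the gene it resembles was not tested.

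Genes around the 6 were grouped in 7 lists of 81 measured genes, of which limma called 1 higher and 1 lower, 2 calls beside 3.00% of all genes. The 81 had a median difference of 0.04, against 0.03 for all genes.

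The gene that fell was F2r, the thrombin receptor PAR1, which thrombin activates by cutting its outer end. It was at 9.63, 9.93 and 9.85 in control and 9.23, 9.11 and 8.84 in TWEAK arrays, so that every TWEAK array lay below every control array. F2r fell by 0.74 (SE 0.13), to 0.597 of the control level, at a limma Benjamini-Hochberg adjusted p of 0.0346. The other measured protease-activated receptors were not called. F2rl1, the trypsin and tryptase receptor PAR2, was at 8.94, 9.08 and 9.17 in control and 9.40, 9.58 and 9.73 in TWEAK arrays, again without overlap but upwards. Its difference was 0.50 (SE 0.11, limma Benjamini-Hochberg adjusted p = 0.0514). F2rl3 (PAR4) differed by 0.27 (SE 0.09) and F2rl2 (PAR3) by -0.07 (SE 0.14). The F2r call was kept without control 1 and lost without any other single array, at limma Benjamini-Hochberg adjusted p of 0.134 without control 2, 0.0901 without control 3, 0.0862 without TWEAK 1, 0.0568 without TWEAK 2 and 0.0925 without TWEAK 3, with the difference between -0.83 and -0.63.

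The gene that rose was Spint2, a Kunitz-type inhibitor in the membrane that blocks HGF activator and other serine proteases at the cell surface. It was at 9.58, 9.63 and 9.33 in control and 10.05, 10.06 and 9.92 in TWEAK arrays, which did not overlap. Spint2 rose by 0.49 (SE 0.10), 1.41-fold, at a limma Benjamini-Hochberg adjusted p of 0.0475. Its call was likewise kept without control 1 and lost without control 2 (0.134), control 3 (0.112), TWEAK 1 (0.134), TWEAK 2 (0.0872) or TWEAK 3 (0.112), with the difference between 0.40 and 0.55. The calls of F2r and Spint2 were also lost after cyclic loess (limma adjusted p of 0.0515 and 0.0625) and when single probe sets were tested (0.0592 and 0.0733). Of the other 10 pericellular proteases, inhibitors and HGF genes none was called: the proprotein convertase Furin differed by 0.18 (SE 0.08), the membrane protease Tmprss2 by 0.21 (SE 0.10) and the HGF receptor Met by -0.25 (SE 0.14). Met was at -0.11 without control 3 and at -0.39 without control 1. The list's median was 0.02.

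**Figure D3:**
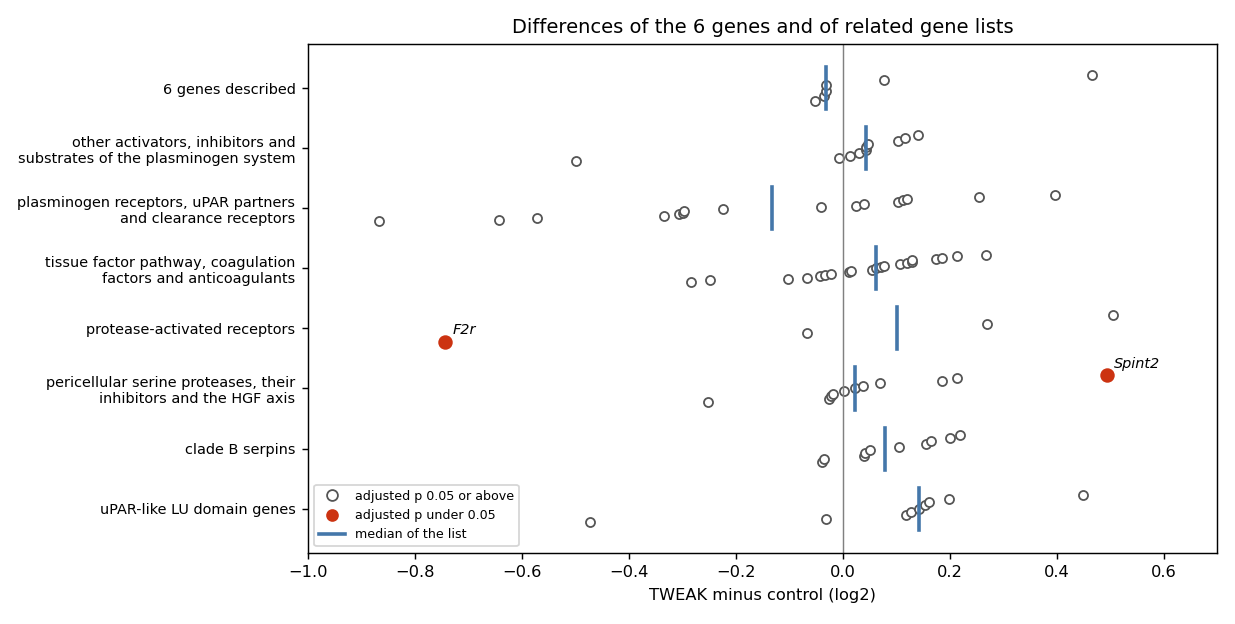
TWEAK minus control on the log2 scale (horizontal axis) for the 6 genes and for the 7 related lists (rows). Circles are genes, red ones with their names passed limma's test, and blue lines are medians. F2r at -0.74 and Spint2 at 0.49 were the called genes, and the list of plasminogen receptors and partners spread from -0.87 (Itgb1) to 0.40 (Itga5).

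Of 16 plasminogen receptors, urokinase receptor partners and clearance receptors 0 were called, 5 having a negative and 2 a positive difference at an unadjusted p under 0.05 in limma, beside 13.1% and 8.15% of all genes. The list's median was -0.13. The smallest p belonged to the endocytic receptor Lrp2 (megalin), which differed by -0.64 (SE 0.18, limma Benjamini-Hochberg adjusted p = 0.0859), and to the integrin subunit Itga5, which differed by 0.40 (SE 0.11, adjusted p = 0.0946 in limma). Lrp1, which clears complexes of activators with their inhibitors, differed by -0.31 (SE 0.09) and the plasminogen receptor Plgrkt by -0.57 (SE 0.19). Lrp2 and Plgrkt would be called without control 1, at limma adjusted p of 0.041 and 0.0277. In that setting 1876 of all genes were called instead of 661. Neither gene would be called without any other single array, and without TWEAK 3 the differences of Lrp2 and Plgrkt were -0.49 and -0.46. The plasminogen-binding proteins at the cell surface Anxa2, S100a10 and Eno1 differed by 0.03, 0.11 and 0.04. The lowest difference of the list was that of the integrin subunit Itgb1, -0.87 (SE 0.29, limma Benjamini-Hochberg adjusted p = 0.135). Itgb1 was at 9.55, 10.03 and 9.99 in control and 9.10, 9.58 and 8.30 in TWEAK arrays.

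Of 10 other inhibitors and substrates of plasminogen activation 0 were called (median 0.04), and most of them had means below the array median. Plasminogen itself, Plg, had means of 5.09 without and 5.08 with TWEAK. Serpinb6a, a relative of Serpinb2, differed by -0.50 (SE 0.15, limma Benjamini-Hochberg adjusted p = 0.108). Its limma adjusted p was 0.0432 without control 1, where 1876 of all genes were called. Serpinb6a would not be called without any other single array, and its difference was -0.38 without TWEAK 3. The broad protease inhibitor A2m differed by 0.14, the plasmin inhibitor gene Serpinf2 by 0.12 and Serpinb8 by 0.10. With single arrays left out A2m ranged from 0.0672 to 0.24, Serpinf2 from 0.0366 to 0.19 and Serpinb8 from 0.0259 to 0.21. Of 10 further clade B serpins 0 were called (median 0.08), the smallest p being those of Serpinb1a at 0.17 (SE 0.08), Serpinb10 at 0.15, Serpinb6b at 0.22 and Serpinb5 at 0.11. Serpinb10 was at 0.0946 without TWEAK 3, Serpinb6b at 0.0962 without control 1 and Serpinb5 at 0.0253 without control 3. Control and TWEAK means were 4.34 and 4.50 for Serpinb1a, 3.27 and 3.42 for Serpinb10, and 3.82 and 3.93 for Serpinb5. All of these lay below the lower quartile of every array, as did most of the list, so a change may be too dim to be seen. Serpinb6b, with means of 5.45 and 5.67, lay above it. Clade B serpins and the Ly6 family contain close copies, which leaves their probe set values uncertain.

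Of 21 genes of the tissue factor pathway, coagulation and its brakes 0 were called (median 0.06). F7, the partner of tissue factor, had means of 5.67 without and 5.93 with TWEAK and differed by 0.27 (SE 0.08, limma Benjamini-Hochberg adjusted p = 0.0998). The fibrinogen chain gene Fgg differed by 0.21 (SE 0.09), the tissue factor pathway inhibitor Tfpi by -0.25 (SE 0.11) and thrombomodulin, Thbd, by 0.18 (SE 0.11). The difference for Thbd was 0.0871 without control 3. The groups of arrays did not overlap for 4 of the 21, which were F7, Fgg and F13b, higher under TWEAK, and Tfpi, lower, while 26.4% of all genes had groups that did not overlap. F13b, a clotting factor chain chosen here after its values were seen, differed by 0.08 (SE 0.08). Fgg and F13b had means of 4.03 and 4.13 in control and 4.25 and 4.21 in TWEAK arrays, below the lower quartile of every array. Most of the 21 genes had means below the array median, and at low values a change may be too dim to be seen. Of 9 genes whose proteins share the fold of the urokinase receptor 0 were called (median 0.14), with the complement regulator Cd59a at -0.47 (SE 0.14, limma Benjamini-Hochberg adjusted p = 0.0994), Lypd6b at 0.20 (SE 0.08), Lynx1 at 0.45 (SE 0.21) and Ly6e at 0.16 (SE 0.10). Without control 2 Lynx1 was at 0.25 and Ly6e at 0.10.

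**Figure D4:**
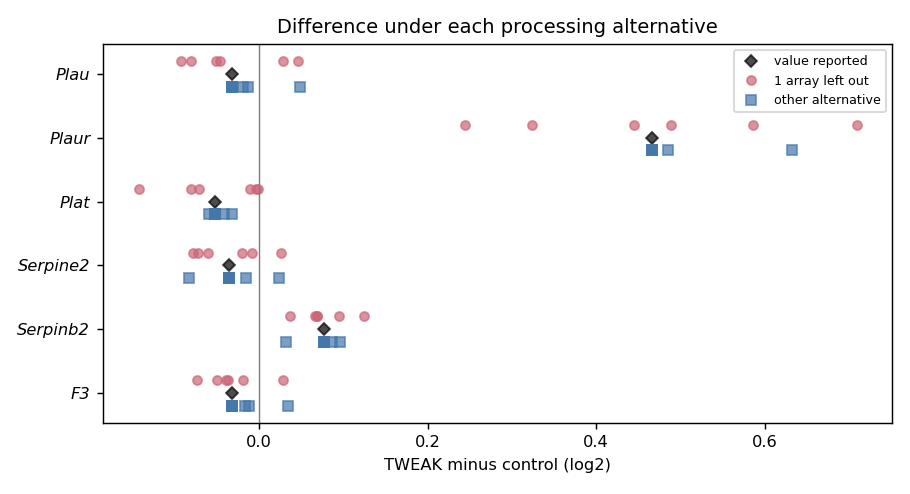
TWEAK minus control on the log2 scale (horizontal axis) for the 6 genes under the reported analysis (black diamonds), with 1 array left out (red circles) and under the other alternatives (blue squares). Plaur stayed above 0 throughout, between 0.24 and 0.71, while Plau, Serpine2 and F3 lay on both sides of 0.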

How the data were processed

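Per the submitters' processing notes, the authors made log2 expression values per probe set with RMA in Affymetrix Expression Console; their versions and the genome build were not stated in the labels or files. RMA forces the arrays to a common distribution and so hides a change common to most genes. Both deposited tables held the same log2 values (largest difference 1.78e-15). The deposited workbook also holds the authors' ratio, p-value and false discovery rate. Groups came from sample titles. The 6 members and the lists were chosen with earlier results of these data known.

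Symbols were updated by accession (22115 probe sets), symbol (1815) or synonym (625) in a RefSeq table of GRCm38.p6, names only, and 910 were kept. A gene was represented by its brightest probe set over 6 arrays. Differences were tested with limma 3.58.1 in R 4.3.3 (lmFit, eBayes, no block), with Benjamini-Hochberg adjustment over 22061 genes, two-sided, at 0.05. SE and 95% intervals are moderated and unadjusted, and the number of arrays limits precision. The code was tested on simulated data. Figures used Python 3.11.15 and matplotlib 3.10.9. Named genes were the 6, per list the 4 smallest p, any called, the 3 most alike per gene, and Tnfrsf12a. Anxa2, S100a10, Eno1, Itgb1, Plg, F13b and the cell markers were chosen after their values were seen. Klkb1 and Fpr2 had no value of their own. Beside the marker lists used, 1 further cell marker is not reported here. The alternatives tried are given in the closing section.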

Additional observations from a re-analysis of the deposited data

How the results depend on the processing

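Under 15 alternatives (14 for Serpine2 and Serpinb2, which are not among the brighter genes) the count of the 6 genes past the threshold stayed at 0, and the smallest limma Benjamini-Hochberg adjusted p was 0.0647, for Plaur with array weights. Plaur, Plat and Serpinb2 kept their sign in all of them. With array weights Plau was at 0.0492, Serpine2 at 0.0237 and F3 at 0.0343. With single arrays left out Plau ranged from -0.0929 to 0.0463, Serpine2 from -0.0785 to 0.0264, F3 from -0.073 to 0.0284 and F2rl2 from -0.20 to 0.0491. The count of all called genes, 661, was 207 with a replicate block, 1020 among brighter genes, 107 over single probe sets, 267 after cyclic loess, 3223 with array weights and 1 to 1876 with single arrays left out (leaving out control 1, 2 or 3 gave 1876, 16 and 63, and leaving out TWEAK 1, 2 or 3 gave 1, 219 and 38). The share of higher calls, 42.8%, was 53.4% with arrays centred on their medians and 68.5% after cyclic loess. The protease-activated receptor list, at 1 call, had 0 with a replicate block, over single probe sets or after cyclic loess, 2 with trend and robust settings, among brighter genes or with array weights, and 0 to 1 with single arrays left out. The pericellular protease list, at 1, had 0 with a replicate block, over single probe sets or after cyclic loess, and 0 to 1 with single arrays left out. With array weights the lists at 0 calls had 5 (plasminogen and clearance receptors, 0 to 2 with single arrays left out), 1 (other inhibitors and substrates, 0 to 1 likewise), 1 (coagulation) and 1 (receptor-like fold). The cause of these changes was not tested.

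Same-numbered arrays had correlations of their deviations from the group means, over all genes, of 0.20, 0.36 and -0.07. Those of arrays with different numbers ran from -0.49 to 0.29. With 3 arrays per group these values cannot decide whether the numbers pair the arrays, and the block was used as an alternative only. With a replicate block Plaur kept its difference of 0.47, with a 95% interval of 0.12 to 0.81 and an unadjusted p of 0.0173 in limma, as 21.8% of all genes had an unadjusted p under 0.05, and a Benjamini-Hochberg adjusted p of 0.137. F2r and Spint2 were then at adjusted p of 0.0662 and 0.0625 in limma. The block changed no call of the 6 genes.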

Other observations

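For each of the 6 genes the replicate number held a larger share of the sum of squares than treatment did, but it takes up 2 degrees of freedom against 1 for treatment, so the shares are read here only beside those of all genes. The replicate number held 92.0% of the sum of squares over the 6 arrays for Serpine2, 91.9% for Plau and 85.6% for Plat, and 50.6% for Plaur, 38.2% for Serpinb2 and 29.4% for F3, where the median over all genes was 32.0%. A share at least as high was found for 2.29% of all genes in the case of Serpine2, 2.33% for Plau and 5.44% for Plat, but for 30.9% for Plaur, 43.3% for Serpinb2 and 53.2% for F3. Treatment held 36.2% for Plaur, 33.5% for Serpinb2 and 2.35% to 5.94% for the other 4 genes, beside a median of 26.8% over all genes. The total range over the arrays was 0.31 for Plau, 0.28 for Plat and 0.21 for Serpine2 on the log2 scale, so these shares divide a small variation.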
